A study of Mus musculus with 6 samples.

Results

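The G2 and mitosis genes are 49 genes that a cell uses between the end of DNA replication and the split into daughter cells: the mitotic cyclins and kinases, the kinetochore, the spindle checkpoint, condensin, the spindle and the machinery of cytokinesis. They were taken from a list of symbols, and all 49 were found among the 23793 loci of the deposited table, each at 1 locus. RNA of the cerebellum was measured at birth (postnatal day 0) in mice, from 3 conditional knockout libraries (cKO, Zeb2 f/f; hGFAP-cre) and 3 control libraries (Zeb2 f/+; hGFAP-cre). The deleted gene, Zeb2, codes for a transcription factor with zinc fingers. The Cre recombinase was driven by the human GFAP promoter, which is active in neural progenitors and glia. Animals of both groups carried Cre, and the controls carried 1 floxed Zeb2 allele. Values were taken to be FPKM, a count of fragments scaled to transcript length and library size, which gives relative levels. Over all loci they summed to 497542.5 in cKO 1 and to 519248.4 to 524474.2 in the other libraries.

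These genes are known for their periodic expression. Cyclins A2, B1 and B2 bind the kinase Cdk1 and drive entry into mitosis, the Aurora and Polo kinases build the spindle, and the checkpoint holds chromosome separation back until every kinetochore is attached. A ubiquitin ligase, the anaphase promoting complex, then has the cyclins and securin destroyed. At birth the cerebellum holds many dividing cells, above all the granule neuron progenitors of its outer layer, with radial glia and Bergmann glia, glial precursors and vessel cells beside them.

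Several facts of the libraries bear on every value. The Zeb2 locus, which also carries the symbol Mir5129, was at 6.19, 3.89 and 5.81 FPKM in the cKO libraries, against 11.4, 9.52 and 7.995 FPKM in the control libraries, and did not pass the test over all loci (limma, adjusted p = 0.107). In the fit without small-RNA loci its adjusted p was 0.0463, and with 1 library left out it was 0.125 to 0.312 (limma). The Y-linked gene Eif2s3y averaged 0.0766 FPKM in cKO and 35.8 FPKM in the controls, and Xist, the RNA of the inactive X, averaged 144.0 and 0.394 FPKM, so genotype and sex cannot be told apart. A marker of the tissue was present: En2, a homeobox gene of the cerebellum, averaged 45.4 FPKM in cKO and 40.9 FPKM in the controls. Ratios of low values between 2 libraries gathered at a common size in some pairs of libraries and not in other pairs. This put control 1 with cKO 3 and the other 4 libraries together, called processing sets here, each with both genotypes. The accession numbers form 2 runs, called deposits here, with control 3 and cKO 3 in the second. The labels do not say that each library came from a separate animal, so a p-value reflects only how far these libraries spread.

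All 49 genes had a log2 fold change below 0, cKO minus control, as had 53.0% of the 13612 loci tested. The median was -0.39, with the middle of the list between -0.46 and -0.32, against -0.0095 over all loci tested. In linear terms the median member stood at 74.5% of its control mean, and 40 of the 49 stood between 65% and 80%. In 44 of the 49 genes the highest cKO library was lower than the lowest control library, which was so for 13.6% of the loci tested. Taking 0.05 as the threshold for the adjusted p (limma on log2(FPKM + 1), Benjamini-Hochberg over all loci), 8 of the 49 fell and 0 rose, where 0.331% of all loci tested fell and 0.242% rose. These were the kinases Aurka, Aurkb and Bub1, the checkpoint protein gene Bub1b, Cdc20, Top2a and the condensin genes Smc2 and Ncapg. Before adjustment 45 of the 49 had a p under 0.05 and a lower level, as had 9.79% of the loci tested, and 7.82% had a higher one. In whole tissue, fewer dividing cells and less RNA per dividing cell cannot be told apart.

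The count of 8 was sensitive to the fit. In a fit without small-RNA loci it was 31, where 1.48% of all loci were lower and 0.957% higher. With a robust estimate of the variance it was also 31, the same genes, where 1.51% were lower and 0.955% higher. With any 1 of the 6 libraries left out it was 0, except without control 3, where Cdc20 alone passed, while 40 to 45 of the genes had an unadjusted p under 0.05 in these fits (limma). The median log2 fold change stayed between -0.41 and -0.34 in them.

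**Figure D1:**
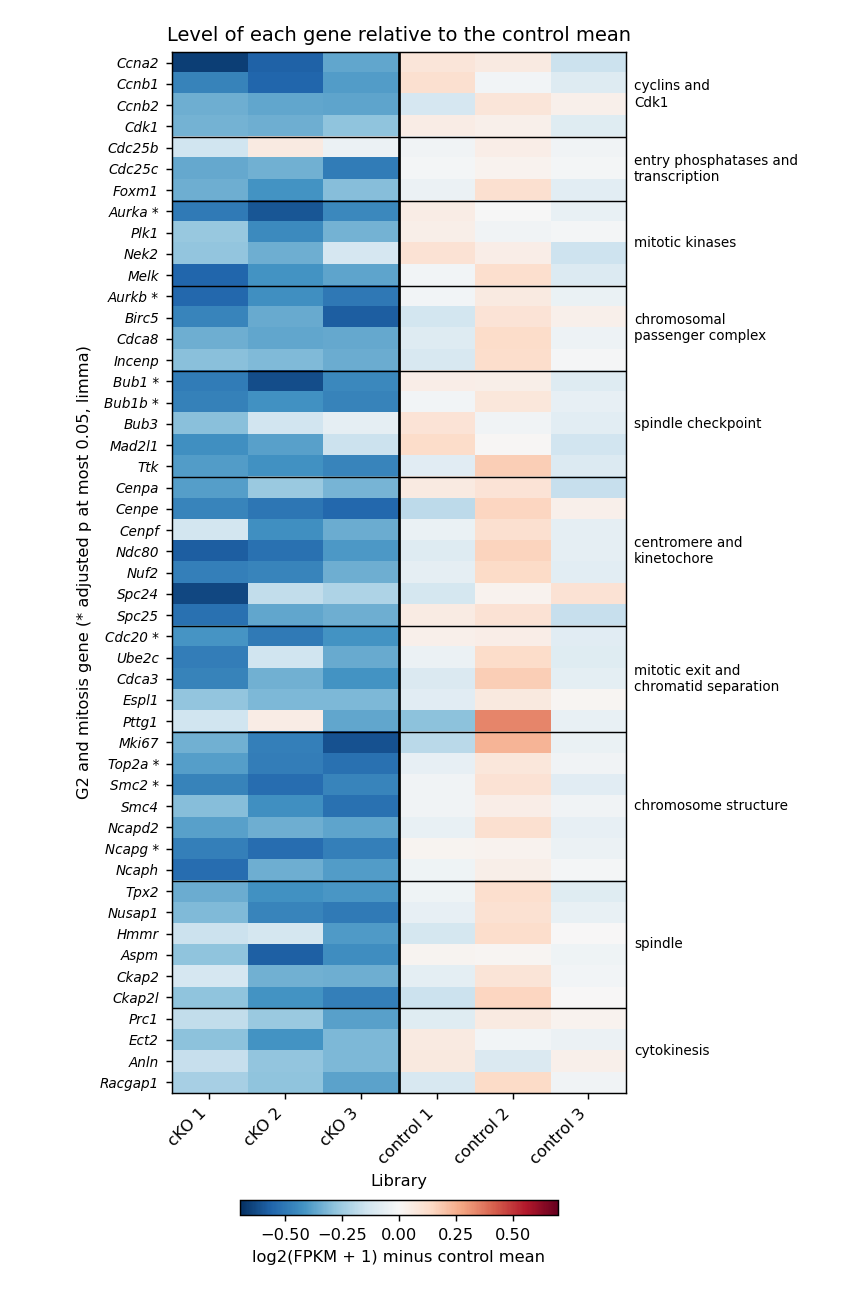
Level of each of the 49 genes in each library, as log2(FPKM + 1) minus the mean of the 3 control libraries, with cKO libraries left of the line and control libraries right of it, grouped by role. Blue is lower than the control mean, and the blue fills the cKO columns in nearly all rows, with Cdc25b, Bub3 and Pttg1 the palest.

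The promoters of these genes share letters that the choice of genes did not use. Many genes of this phase carry a cell cycle genes homology region (CHR, TTTGAA), which the MuvB complexes recognise, and CCAAT boxes, to which the factor NF-Y binds. RefSeq windows from 250 bases before to 50 after the start (GRCm38.p6) were matched by symbol for 41 of the 49 genes. A CHR on either strand was found in 29 of the 41 (70.7%), against 13.5% of the 10137 genes of tested loci with a window and 20.2% of all 27025 genes. In 26 of the 29 it began within 50 bases of the start. CCAAT was found in 32 (78.05%), against 43.0% and 41.1%, and both motifs in 1 window in 27 (65.9%), against 5.58% and 7.97%. The motifs can share at most 1 base, and neither contains the GC box (GGGCGG), which was found in 80.5% of the 41, against 69.9% and 38.2%. The E-box that Zeb factors bind (CACCTG) was found in 3 of the 41 (7.32%), against 20.8% and 22.6%, a motif added to the search after the others. These are matches of letters, not measured binding.

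The 120 bases before the start are shown for Cdk1 and Ccnb1, the core of the mitotic switch, for the 7 of the 8 genes that fell whose window was matched (all but Aurkb), and for Cdc25b, the member with the smallest change. Capitals mark TTTGAA and CCAAT on either strand. The windows are chr10:69352913-69353032 (minus strand) for Cdk1, chr13:100786487-100786606 (minus) for Ccnb1, chr4:118437344-118437463 (minus) for Cdc20, chr11:99024190-99024309 (minus) for Top2a, chr5:45669805-45669924 (plus) for Ncapg, chr2:172370571-172370690 (minus) for Aurka, chr2:127831860-127831979 (minus) for Bub1, chr2:118598091-118598210 (plus) for Bub1b, chr4:52439101-52439220 (plus) for Smc2 and chr2:131186828-131186947 (plus) for Cdc25b, in GRCm38.p6.
Cdk1: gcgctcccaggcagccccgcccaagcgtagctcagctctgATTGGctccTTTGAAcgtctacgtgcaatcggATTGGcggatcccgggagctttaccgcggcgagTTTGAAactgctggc
Ccnb1: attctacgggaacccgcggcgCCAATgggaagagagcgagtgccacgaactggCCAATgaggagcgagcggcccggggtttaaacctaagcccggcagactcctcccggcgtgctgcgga
Cdc20: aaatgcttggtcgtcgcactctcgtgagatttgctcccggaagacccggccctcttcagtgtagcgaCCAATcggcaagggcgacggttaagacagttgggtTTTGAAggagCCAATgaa
Top2a: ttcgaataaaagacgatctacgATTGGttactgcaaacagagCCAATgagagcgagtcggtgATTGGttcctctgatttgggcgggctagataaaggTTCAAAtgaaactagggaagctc
Ncapg: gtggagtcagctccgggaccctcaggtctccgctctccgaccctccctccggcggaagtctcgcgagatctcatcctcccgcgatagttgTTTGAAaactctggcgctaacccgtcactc
Aurka: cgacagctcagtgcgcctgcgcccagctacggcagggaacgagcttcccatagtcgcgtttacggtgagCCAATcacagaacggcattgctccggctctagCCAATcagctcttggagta
Bub1: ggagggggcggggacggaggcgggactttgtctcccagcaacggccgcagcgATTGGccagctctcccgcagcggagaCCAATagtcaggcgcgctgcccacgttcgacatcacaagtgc
Bub1b: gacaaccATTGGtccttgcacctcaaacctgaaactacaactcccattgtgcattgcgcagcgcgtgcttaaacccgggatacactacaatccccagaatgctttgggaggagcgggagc
Smc2: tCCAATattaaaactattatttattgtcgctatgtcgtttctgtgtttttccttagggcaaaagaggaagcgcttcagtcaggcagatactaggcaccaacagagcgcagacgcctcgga
Cdc25b: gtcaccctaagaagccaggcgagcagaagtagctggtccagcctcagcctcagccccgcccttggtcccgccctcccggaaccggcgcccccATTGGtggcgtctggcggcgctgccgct

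Cdk1 has 2 CHR matches and Cdc20, Top2a and Ncapg have 1 each in these 120 bases. Aurka and Bub1b have theirs after the start, in the last 50 bases of the window, and Smc2 has 1 there and 1 further upstream. The windows of Bub1, Ccnb1 and Cdc25b hold no TTTGAA. The variant TTCGAA, which Bub1 and Cdc25b have just after the start, was found in 4 of the 41 (9.76%), against 2.43% and 1.80%. Members of both kinds lay below control: the median level was 76.8% of control over the 29 with a CHR and 72.8% over the 12 without, a difference that was not tested. In other lists a CHR was found in 16 of 34 other G2 and mitosis genes (47.1%) and in 7 of 16 MuvB, E2F and Myb regulators (43.75%). Matches were also present in 2 of 3 condensin II genes, which are counted among the 34 as well, and in 2 of 5 endothelial genes. Cell type lists had matches too, with 3 of 11 radial and Bergmann glia genes, 2 of 7 granule neuron progenitor genes and 1 of 3 Purkinje cell genes. A CHR was found in 2 of 20 S phase genes and in 1 of 12 genes of the anaphase promoting complex (8.33%). It was found in 0 of 10 genes of differentiating granule neurons and in 0 of 7 brakes on the cycle.

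**Figure D2:**
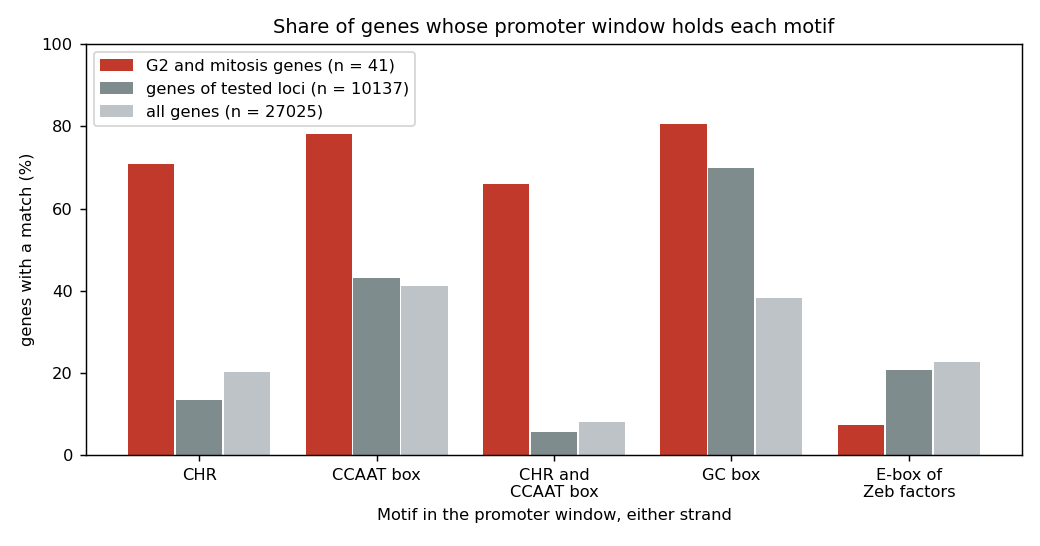
Share of genes whose promoter window (250 bases before to 50 after the start, either strand) holds each motif, in percent, for the 41 G2 and mitosis genes with a window, for genes of tested loci and for all genes. The share with a CHR is 70.7% of the G2 and mitosis genes, and 13.5% of the genes of tested loci.

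The cyclins and Cdk1 stood at 68.7% to 79.1% of control with their groups apart, and 0 of the 4 passed (limma), with all 4 at an unadjusted p under 0.05. Ccna2, the cyclin of S phase and early mitosis, was at 27.2, 29.1 and 33.6 FPKM in cKO, against 46.2, 45.5 and 39.1 FPKM in the controls. Its log2 fold change of -0.53 (SE 0.10, adjusted p = 0.074) was the most negative of the 49. Ccnb1, cyclin B1, had 20.5, 19.2 and 21.7 FPKM in cKO and 31.2, 28.3 and 26.9 FPKM in the controls, a log2 fold change of -0.47 (SE 0.07) just short of the threshold (limma, adjusted p = 0.0549). Cdk1 itself was at 14.6, 14.5 and 15.1 FPKM in cKO, against 19.3, 19.1 and 17.5 FPKM in the controls, or 79.1% of the control mean. Ccnb2, cyclin B2, was at 16.4, 16.2 and 16.1 FPKM in cKO, against 19.3, 22.4 and 21.6 FPKM in the controls. All 4 passed in the fit without small-RNA loci.

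Of the activators of Cdk1, the phosphatase genes differed from each other in level. Cdc25b was at 20.4, 23.7 and 22.01 FPKM in cKO, against 22.3, 23.4 and 22.3 FPKM in the controls, and the groups overlapped (log2 fold change -0.04, SE 0.06, limma adjusted p = 0.794). Cdc25c, which acts later, at mitosis itself, had 5.16, 5.28 and 4.63 FPKM in cKO and 6.85, 7.05 and 6.83 FPKM in the controls, with the groups apart (log2 fold change -0.39, SE 0.06, limma adjusted p = 0.0645). The locus of Foxm1, the transcription factor that drives many genes of this phase, also carries the symbol 4933413G19Rik. It was at 14.5, 13.7 and 15.01 FPKM in cKO, against 18.1, 20.2 and 17.7 FPKM in the controls (77.1%), and did not pass (limma, adjusted p = 0.0788).

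Among the mitotic kinases Aurka, which matures the spindle poles (chromosome 2, 172356190 to 172370535, minus strand; GENCODE M21, GRCm38), fell to 6.73, 6.18 and 6.96 FPKM in cKO, against 10.3, 9.88 and 9.52 FPKM in the controls. The highest cKO library was thus well under the lowest control library (log2 fold change -0.52, SE 0.06, limma adjusted p = 0.032). Plk1, the Polo kinase, was at 11.3, 9.85 and 10.8 FPKM in cKO and 14.2, 13.5 and 13.7 FPKM in the controls, with no overlap. Melk, a kinase of dividing progenitors, was at 5.48, 6.13 and 6.38 FPKM in cKO, against 8.41, 9.32 and 7.905 FPKM in the controls (70.2%). Nek2, a kinase of centrosome separation, was at 6.12, 5.79 and 6.95 FPKM in cKO, against 8.24, 7.91 and 6.78 FPKM in the controls, so that cKO 3 lay above control 3. None of these 3 passed.

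The chromosomal passenger complex corrects faulty attachments at the centromere, and its kinase Aurkb (chromosome 11, 69045647 to 69051664, plus strand) fell to 12.8, 14.01 and 13.3 FPKM in cKO, against 18.95, 20.1 and 18.6 FPKM in the controls (log2 fold change -0.49, SE 0.06, limma adjusted p = 0.025). Its partner Birc5, survivin, was at 20.9, 22.6 and 19.2 FPKM in cKO, against 26.6, 31.1 and 29.8 FPKM in the controls. Cdca8, borealin, was at 23.3, 23.0 and 23.1 FPKM in cKO, against 28.0, 32.6 and 29.1 FPKM in the controls. All 4 genes of the complex had their groups apart, and the scaffold Incenp stood at 79.4% of control. Of the 4 only Aurkb passed, and 3 did in the fit without small-RNA loci.

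The spindle checkpoint held large and small differences side by side. Bub1, a checkpoint kinase (chromosome 2, 127801122 to 127831865, minus strand), fell to 4.78, 4.27 and 4.92 FPKM in cKO, against 7.37, 7.34 and 6.61 FPKM in the controls (65.5%, log2 fold change -0.52, SE 0.07, limma adjusted p = 0.0439). Bub1b, which encodes BubR1, an inhibitor of the anaphase promoting complex (chromosome 2, 118598211 to 118641591, plus strand), fell to 10.3, 10.7 and 10.3 FPKM in cKO, against 14.4, 15.5 and 14.1 FPKM in the controls (log2 fold change -0.46, SE 0.06, limma adjusted p = 0.032). Their partner Bub3 was at 39.5, 44.2 and 46.5 FPKM in cKO, against 52.1, 47.8 and 46.2 FPKM in the controls, an overlap of cKO 3 with control 3 (89.2%, limma adjusted p = 0.33). Ttk, the kinase Mps1 that starts the checkpoint, was at 4.34, 4.22 and 4.08 FPKM in cKO and 5.63, 6.89 and 5.55 FPKM in the controls. Mad2l1, the Mad2 gene, stood at 79.1% of control, and neither it nor Ttk passed (limma).

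All 7 centromere and kinetochore genes had their groups apart, and 0 passed (limma), with all 7 at an unadjusted p under 0.05. Cenpe, a kinetochore motor, was the member furthest below control in linear terms, at 3.81, 3.67 and 3.53 FPKM in cKO, against 4.83, 6.37 and 5.79 FPKM in the controls (64.8%, limma adjusted p = 0.0762). The Ndc80 complex grips microtubules through 4 subunits. Ndc80 was at 4.83, 5.05 and 5.57 FPKM in cKO, against 7.17, 8.68 and 7.32 FPKM in the controls, and Nuf2 was at 10.4, 10.6 and 11.6 FPKM in cKO, against 14.3, 16.5 and 14.1 FPKM in the controls. Spc25 and Spc24 stood at 74.0% and 78.0%, and Spc24 had the widest spread in cKO among these genes (8.13, 11.6 and 11.2 FPKM). Cenpa, the centromeric histone, and Cenpf stood at 79.0% and 79.3%.

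Genes of mitotic exit were led by Cdc20, the activator of the anaphase promoting complex (chromosome 4, 118432901 to 118437352, minus strand). It fell to 20.7, 19.5 and 20.6 FPKM in cKO, against 28.5, 28.9 and 26.3 FPKM in the controls (log2 fold change -0.44, SE 0.06, limma adjusted p = 0.0331). Ube2c, the ubiquitin-conjugating enzyme of that ligase, had the highest control level of the 49, with 36.9, 47.1 and 40.5 FPKM in cKO, against 50.4, 56.8 and 48.9 FPKM in the controls. Cdca3, a trigger of mitotic entry, was at 27.6, 30.4 and 28.6 FPKM in cKO, against 35.9, 43.6 and 36.8 FPKM in the controls. Espl1, which encodes separase, the protease that cuts cohesin, was at 5.42, 5.25 and 5.27 FPKM in cKO, against 6.36, 7.15 and 6.86 FPKM in the controls. Both had their groups apart. Pttg1, which encodes securin, the inhibitor of separase, varied most: it was at 27.6, 31.6 and 23.4 FPKM in cKO, against 24.7, 38.8 and 29.3 FPKM in the controls (SE 0.17 of a log2 fold change of -0.15, limma adjusted p = 0.701). None of these 4 passed.

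Chromosome structure was the role with the most genes past the threshold, 3 of 7. Top2a, the topoisomerase that untangles sister chromatids (chromosome 11, 98992943 to 99024189, minus strand), fell to 38.3, 35.6 and 34.7 FPKM in cKO, against 48.3, 53.3 and 49.3 FPKM in the controls (log2 fold change -0.46, SE 0.06, limma adjusted p = 0.0336). Smc2, an ATPase core subunit of both condensins (chromosome 4, 52439243 to 52488260, plus strand), fell to 11.3, 10.8 and 11.4 FPKM in cKO, against 15.8, 17.3 and 15.1 FPKM in the controls (log2 fold change -0.49, SE 0.06, limma adjusted p = 0.0336). Ncapg, a subunit of condensin I (chromosome 5, 45669919 to 45700546, plus strand), fell to 4.94, 4.70 and 4.92 FPKM in cKO, against 7.37, 7.40 and 7.01 FPKM in the controls (log2 fold change -0.50, SE 0.06, limma adjusted p = 0.025). The other condensin I subunits did not pass and stood at 77.1% (Ncapd2) and 72.98% (Ncaph), and Smc4, the partner of Smc2, at 74.0%. Their counterparts in condensin II, which were not members, stood nearer to control: Ncapd3 at 92.8%, Ncapg2 at 83.5% and Ncaph2 at 93.3%. That difference between the complexes was not tested. Mki67, the common marker of dividing cells, was at 22.3, 20.1 and 18.3 FPKM in cKO, against 24.8, 33.7 and 27.5 FPKM in the controls, and did not pass (log2 fold change -0.48, SE 0.12, limma adjusted p = 0.128), with control 2 above the other controls.

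Of the 6 spindle and 4 cytokinesis genes 0 passed (limma), with 5 and 4 at an unadjusted p under 0.05. Tpx2, which activates Aurora A on the spindle, was at 17.3, 16.3 and 16.5 FPKM in cKO, against 21.7, 24.2 and 20.9 FPKM in the controls. Nusap1, a spindle microtubule protein, was at 15.1, 13.5 and 13.1 FPKM in cKO, against 18.1, 20.4 and 18.2 FPKM in the controls. Aspm, a spindle pole protein that neural progenitors need to reach their full number, was at 4.71, 3.68 and 4.15 FPKM in cKO, against 6.04, 6.01 and 5.82 FPKM in the controls (70.2%, limma adjusted p = 0.0801). Ckap2l and Ckap2 stood at 74.4% and 82.1%. Hmmr overlapped between groups, at 5.51, 5.62 and 4.49 FPKM in cKO, against 5.61, 6.87 and 6.22 FPKM in the controls.

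The 4 cytokinesis genes had a median log2 fold change of -0.28, the smallest of the 10 roles in size, with the groups apart in each. Ect2, which switches on the contractile ring, was at 6.66, 5.995 and 6.50 FPKM in cKO, against 8.74, 8.21 and 8.06 FPKM in the controls. Racgap1, its partner at the spindle midzone, was at 37.5, 36.3 and 33.9 FPKM in cKO, against 41.0, 48.8 and 43.5 FPKM in the controls. Prc1, which bundles the midzone, was at 21.4, 20.1 and 18.4 FPKM in cKO, against 22.7, 25.4 and 24.6 FPKM in the controls. Anln, which encodes anillin, had the lowest control level of the 49, 3.86 FPKM on average, and stood at 79.95%. No difference between roles was tested.

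**Figure D3:**
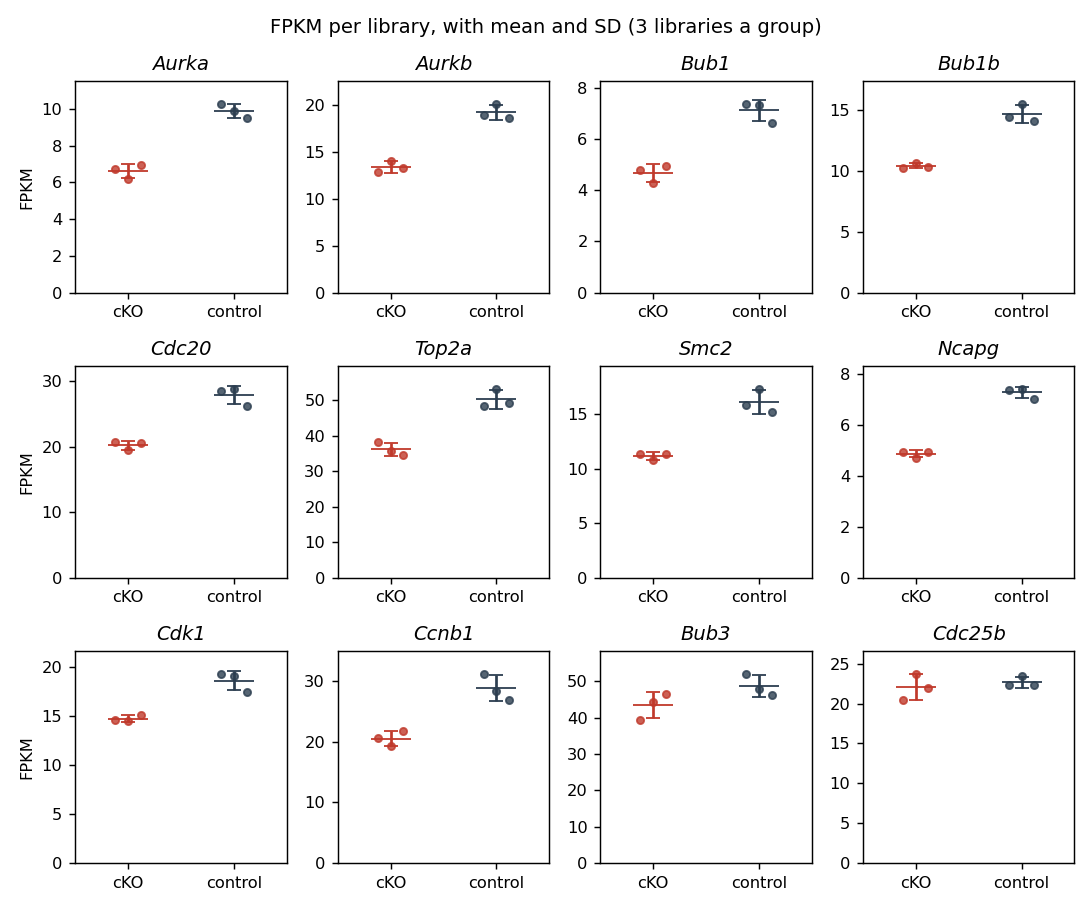
FPKM of each library (points), with the group mean and SD (3 libraries each), cKO left and control right, for the 8 genes that fell, for Cdk1 and Ccnb1 and for 2 genes whose groups overlap. The cKO points of Aurkb lie at 12.8 to 14.01 FPKM, under all its control points, while those of Cdc25b lie on both sides of its control points.

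Across libraries the 49 genes kept close together. Their summed level was 762, 777 and 763 FPKM in cKO 1, 2 and 3, against 974, 1070 and 961 FPKM in controls 1, 2 and 3. As a share of all FPKM this was 0.147 to 0.153% in cKO and 0.184 to 0.205% in the controls. The lowest of the 6 libraries was cKO 1 for 16 genes, cKO 2 for 16 and cKO 3 for 17, and never a control. The highest was control 2 for 35 genes, control 1 for 12, control 3 for 1 and cKO 2 for 1, so that control 2 stood above its group. Set against the control mean, the median member was at -0.36, -0.42 and -0.38 log2 units in cKO 1, 2 and 3. Library cKO 3 was as low in these genes as the other cKO libraries.

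The difference was also seen within each deposit and each processing set, which the labels do not name as batches. In the first deposit (2 cKO and 2 control libraries) the median log2 difference was -0.40, and in the second (1 of each) it was -0.34. Within the processing set of control 1 and cKO 3 it was -0.36, and within the other set, of 2 cKO and 2 control libraries, -0.41. These medians were not tested. The median over all loci lay between -0.015 and -0.0063 in these 4 comparisons. By level, the 24 members with the highest control means had a median of 75.85% of control, and the 25 with the lowest had 72.98%.

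Of 48 other genes of G2 and mitosis, 47 had a log2 fold change below 0, with a median of -0.34, and 3 fell past the threshold (20 in the fit without small-RNA loci). Cks2, a small subunit of Cdk1 complexes, fell to 29.3, 31.0 and 30.2 FPKM in cKO, against 43.9, 43.6 and 40.3 FPKM in the controls (log2 fold change -0.48, SE 0.05, limma adjusted p = 0.0231). Troap fell to 68.7% and Psrc1, a spindle protein, to 71.1% of control. With each library left out in turn Cks2 passed in 1 of the 6 fits, and Troap and Psrc1 in 0 (limma). The exception was Zwint, a kinetochore gene that neurons also express, with 72.9, 77.5 and 75.1 FPKM in cKO and 70.03, 69.0 and 73.3 FPKM in the controls (log2 fold change 0.09). The anaphase promoting complex itself, whose subunits cells also keep outside division, had a median of -0.06 over 13 genes with 0 past the threshold (limma). Anapc4, Anapc10 and Cdc16 were the 3 with an unadjusted p under 0.05, at 91.5%, 86.6% and 89.9% of control. Cohesin, the ring that holds sister chromatids together, had a median of -0.13 over 10 genes with 0 past the threshold (limma) and 5 at an unadjusted p under 0.05, and Smc1a, Wapal and Pds5a stood at 83.6%, 86.2% and 88.5%.

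Of 20 genes of the MuvB, E2F, Myb and NF-Y families 18 were below 0 (median -0.14) and 0 passed (limma), with 9 at an unadjusted p under 0.05. Among them were Rbl1, a pocket protein, at 78.4%, Tfdp1, the E2F partner, at 83.2% and E2f7 at 75.6%. Mybl2, which encodes B-Myb, and E2f1 were further from control, at 71.2% and 72.2%. In the fit without small-RNA loci 2 of the 20 passed. Of 10 brakes on Cdk1 and on the cycle 7 were below 0, and 6 of the 10 had an unadjusted p under 0.05. Cdkn1a, the inhibitor p21, rose to 61.1, 64.0 and 66.1 FPKM in cKO, against 47.7, 44.9 and 49.8 FPKM in the controls (log2 fold change 0.42, SE 0.06, limma adjusted p = 0.0391). This call was lost with any 1 of the 6 libraries left out (limma, adjusted p of 0.0712 to 0.165). Pkmyt1, which holds Cdk1 inactive, stood at 83.8% and Gadd45g at 77.9% without passing.

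The S phase genes lay close to the G2 and mitosis genes. All 26 were below 0, with a median of -0.33, and Mcm4, a subunit of the replicative helicase, fell to 73.5% of control (16.3, 16.3 and 16.7 FPKM in cKO, against 22.2, 23.5 and 21.6 FPKM in the controls). It was the 1 gene of the list past the threshold, a call lost with any 1 of the 6 libraries left out (limma, adjusted p of 0.0632 to 0.132), and 8 passed in the fit without small-RNA loci. Mcm6 and Uhrf1, a reader of DNA methylation at the fork, stood at 72.9% and 69.6% (limma adjusted p = 0.0645 and 0.0537). Ccnd1, cyclin D1, which acts in G1, was further down than any of the 49: it fell to 28.8, 27.1 and 31.5 FPKM in cKO, against 58.6, 64.5 and 56.8 FPKM in the controls (48.7%, log2 fold change -1.01, SE 0.07, limma adjusted p = 0.00305). It passed with each of the 6 libraries left out.

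**Figure D4:**
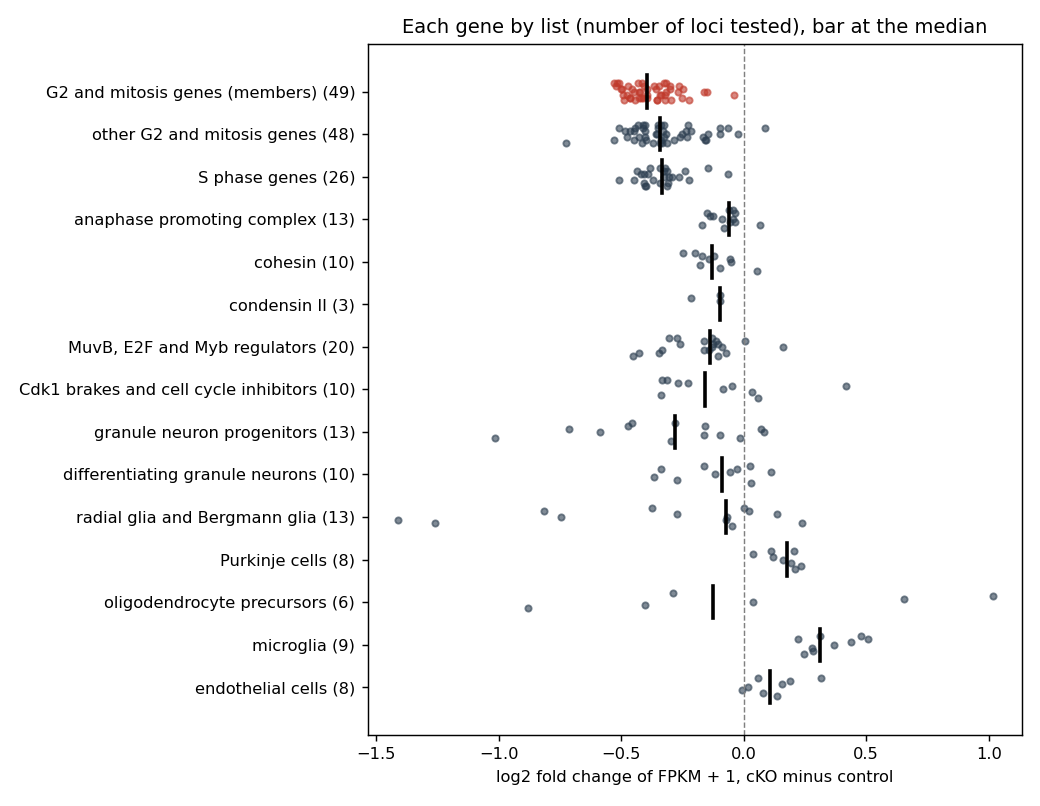
Log2 fold change of FPKM + 1 (cKO minus control) of each tested gene, by list, with a bar at the median and the number of loci in brackets. The G2 and mitosis genes (red) have a median of -0.39, the other G2 and mitosis genes -0.34 and the S phase genes -0.33, while the anaphase promoting complex lies near 0.

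Markers of cell types differed beside these genes, and their part in the result was not tested. The 13 granule neuron progenitor genes summed to 654 to 703 FPKM in cKO, against 720 to 813 FPKM in the controls. Of them 11 were below 0 (median -0.28) and only Ccnd1 passed (3 genes in the fit without small-RNA loci). Gli1 and Gli2, the transcription factors of hedgehog signalling, stood at 59.4% and 63.0%. Ccnd2 and Mycn, also with their groups apart, stood at 80.9% and 81.7%. So did Hhip at 59.6%, a low gene with 0.62 FPKM in cKO 2. Groups overlapped for Atoh1 (71.8%), Ptch1 (89.3%), Barhl1 (90.0%) and the most abundant genes, Zic1 (93.3%) and Zic2 (99.0%). They also overlapped for the 2 genes above 0, Boc (105%) and Sfrp1 (108%). The 13 radial and Bergmann glia genes summed to 2293 to 2567 FPKM in cKO, against 2790 to 2893 FPKM in the controls, with 9 below 0, 4 above and a median of -0.07. One of them passed, Gpr37l1, an astroglial receptor, which fell to 25.99% (3 of the 6 fits with 1 library left out), and Vim and Slc1a3 stood at 60.1% and 59.7%. Gdf10, with its groups apart, stood at 47.65%, and Hes5 and Nes, with groups that overlapped, at 76.0% and 83.7%. The rest of the list was near control or above it, with Fabp7, the most abundant, at 100.2%, Sox9 at 97.3%, Sox2 at 111% and Tnc at 119%. The 10 tested genes of differentiating granule neurons had 7 below 0, 3 above and a median of -0.09, with 0 past the threshold (limma) and 3 at an unadjusted p under 0.05, and Nhlh2, Cntn1 and Pax6 stood at 76.6%, 82.5% and 79.2%. The 3 above 0 were Rbfox3, Neurod2 and Etv1, at 108%, 102% and 101.9%.

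Other lists lay above control or near it. All 8 Purkinje cell genes, of a cell that no longer divides, were above 0 (median 0.18, with 880 to 940 FPKM in cKO, against 809 to 860 FPKM in the controls) and 0 passed (limma), 4 having an unadjusted p under 0.05, with Foxp2, Rora and Car8 at 112%, 115% and 116%. All 9 microglia genes were above 0 with their groups apart (median 0.31), where 10.3% of loci tested had all cKO libraries above all controls. One of the 9, Aif1, reached 1 FPKM in the cKO libraries only, so that it met the filter through cKO alone. It is included in the counts, the median and the sums given here, but is no support for them. The 9 genes summed to 55.5 to 60.3 FPKM in cKO, against 42.4 to 43.1 FPKM in the controls. Csf1r rose to 149% of control, with C1qa and C1qc at 149% and 133%. Csf1r was the 1 microglia gene past the threshold, a call lost with any 1 of the 6 libraries left out (limma, adjusted p of 0.0616 to 0.194), and 4 passed in the fit without small-RNA loci. The 6 genes of oligodendrocyte precursors, 3 below 0 and 3 above, summed to 196 to 221 FPKM in cKO, against 111 to 145 FPKM in the controls. Olig1, which made up most of these sums, rose to 202% (2 of the 6 fits with 1 library left out). Olig2 stood at 159%, and Pdgfra and Gpr17 at 80.6% and 45.4%. Endothelial genes summed to 77.3 to 83.2 FPKM in cKO, against 67.03 to 77.4 FPKM in the controls, with Esam, Emcn and Cdh5 at 111%, 135% and 117%, 0 of 8 past the threshold (limma) and 2 at an unadjusted p under 0.05. Meningeal fibroblast genes, the loosest list, summed to 16.5 to 62.4 FPKM in cKO, against 7.24 to 27.8 FPKM in the controls, with Ptgds, Foxc1 and Lum at 264%, 153% and 429%. Of the 7 tested 0 passed (limma), and 2 had an unadjusted p under 0.05, Ptgds and Foxc1. Foxc1 reached 1 FPKM in all cKO libraries but in control 1 alone, as did Col1a1 and Dcn. Lum reached it only in cKO 1, cKO 2 and control 1. These genes met the filter mainly through cKO, so their values above control are no support for a rise. Erythroid genes were low in both, at 12.3 to 13.9 FPKM in cKO, against 6.62 to 26.1 FPKM in the controls. One of the 2 alpha globin loci was at 2.14, 1.15 and 1.56 FPKM in cKO and listed at 0 in all controls, so that it met the filter only through cKO and no test is given, while the other stood at 53.5% and the beta globin Hbb-bt at 44.2%. Of 8 genes of cerebellar and hindbrain identity Gbx2, a homeobox gene of the midbrain and hindbrain border, rose to 227% of control (3 of the 6 fits with 1 library left out), and Zic4 and En1 stood at 83.6% and 121%. Tbr1, named among the forebrain genes but also used by cerebellar nuclei, made up most of that list and stood at 128%.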

How the data were processed

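RNA of the newborn cerebellum was measured in 3 cKO and 3 control libraries, grouped and numbered by their titles. The description of the library titled cKO 1 carries the number 3 instead, so that which of cKO 1 and cKO 3 lies in which deposit rests on the titles. Trizol was used for total RNA and the TruSeq RNA kit for the libraries, according to the labels' protocols. The submitters' processing notes name CASAVA, TopHat and Cufflinks, and build mm10. The authors' values were taken to be FPKM because of the Cufflinks locus names and the values themselves. Software versions, annotation, strand setting and read depth were not given in those sources, so no counting error is given.

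Values were taken as log2(FPKM + 1), a scale that understates the change of low genes. The test covered 13612 loci, those that reached 1 FPKM in 3 or more libraries, and used limma 3.58.1 (R 4.3.3) with a mean-variance trend, two-sided, at a Benjamini-Hochberg adjusted p of 0.05. Percentages of control are ratios of mean FPKM. An exact permutation test of 3 against 3 libraries cannot go below p = 0.1. The members and lists were chosen with earlier results of these data known. The rule for named genes took the 3 smallest p of each role and list, every member past the threshold and every member whose groups overlapped. Values per library for Ccna2, Mki67, Ube2c, Spc24 and Zwint, and En2, the condensin II genes, Mybl2, E2f1, Fabp7, Sox9, Sox2, Tnc, Rbfox3, Neurod2, Etv1, Aif1 and Olig2, were added after their values were seen. So were Gdf10, Hes5, Nes, Atoh1, Barhl1, Ptch1, Ccnd2, Mycn, Hhip, Zic1, Zic2, Boc, Sfrp1, Col1a1 and Dcn. Coordinates are from GENCODE M21, and promoter sequences from RefSeq (GRCm38.p6). Alternatives were other pseudocounts, filters and scalings, a replicate block, deposit and processing set as covariates, small-RNA or X and Y loci left out, robust variance and each library left out. The first deposit alone and the second processing set alone were added after seeing the data. The test was run on simulated data made from these libraries (13468 loci): it called 57 of 100 loci shifted by 0.5 on the log2 scale and 97 of 100 shifted by 1, and 8 of its 162 calls were false. Shifted loci were drawn only from those with a control mean log2(FPKM + 1) above 3, with independent normal errors. Some members, such as Anln and Cenpe, lie below that level, and the median member shift of -0.39 was smaller than either simulated size. These shares therefore do not give the power for the 49 genes. Tables and figures were made in Python 3.11.15 (matplotlib 3.10.9, pandas 2.3.3, numpy 2.4.6).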

Additional observations from a re-analysis of the deposited data

How the results depend on the processing

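The median log2 fold change of the 49 genes kept its sign under all 21 alternatives and moved by less than the spread between libraries in all but the fit without control 2 (-0.34); its range with 1 library left out was -0.41 to -0.34. The counts moved more, and the cause was not tested beyond what each setting changes. Of the 49 genes, 31 were called with small-RNA loci left out and 31 with a robust variance estimate, 4 where a mean of 5 FPKM was required (47 genes tested) and 4 with equal sums, 1 in the first deposit alone, and 0 with no filter, with the deposit as a covariate or in the second processing set alone; at an unadjusted p under 0.05 it was 41 or more in each of these. Leaving out 1 library gave 0 to 1 called genes. Over all loci, 45 were lower and 33 higher. The counts were 198 and 128 with small-RNA loci left out, 206 and 130 with robust variance, 16 and 12 with no filter, 22 and 8 where a mean of 5 FPKM was required, 14 and 8 with the deposit as a covariate, and 22 and 8 in the second processing set alone. With 1 library left out they were 13 to 28 and 7 to 29. Same-numbered libraries did not deviate together (r = -0.027 to 0.049 across loci), which does not exclude that they were paired. With the replicate block 0 of the 49 genes, 11 lower and 4 higher loci were called (limma), and 44 of the 49 had an unadjusted p under 0.05. Cdc25b changed sign without cKO 1 and Pttg1 without control 2, and no other member did under any alternative; with 1 library left out their log2 fold changes were -0.091 to 0.011 for Cdc25b and -0.29 to 0.021 for Pttg1. Read depth was not given in the sources, and what it limits cannot be stated.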
